A study of Mus musculus with 20 samples.

Results

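Livers of mice resuscitated for 4.5 hours after hemorrhagic shock with severe trauma were compared with livers of mice that had a minor trauma. The comparison used 7 of the 20 arrays of the series: the 4 arrays of livers that had 1.5 hours of shock with severe trauma (HS/T) and then 4.5 hours of resuscitation, and the 3 arrays labelled minor trauma (MT). All mice were male C57BL/6 aged 8 to 12 weeks and carried no transgene named in the labels. The remaining arrays were 5 of non-manipulated controls, 4 of livers taken at the end of the 1.5 hours of shock and 4 of livers after 1 hour of resuscitation. They contributed to the estimate of spread and are quoted as reference levels. Anesthesia and surgery are stated for the study as a whole. What the minor trauma consisted of, how long after it those livers were taken, and the time of day of either group are not given in the sources used here, so the groups differ in injury, in resuscitation and possibly in elapsed time, which cannot be told apart.

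Hemorrhagic shock deprives the liver of blood flow and oxygen, and resuscitation restores both. Signals released by injured tissue are sensed in liver by resident macrophages, the Kupffer cells, through Toll-like receptors, which switch on NF-kB target genes and interferons. Interferons act through interferon regulatory factors on genes whose promoters carry interferon-stimulated response elements. Interleukin-6 acts through STAT3 on the plasma proteins of the acute phase, and an inflamed liver is known to turn down genes of bile acid, lipid and drug metabolism.

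Total RNA of whole liver was hybridised to Affymetrix Mouse430_2 arrays. Each level below is a log2 signal, the log2 of the deposited signal plus 6, quantile normalized after the log2 was taken. A log2 change is the mean level of the 4.5-hour group minus that of the minor trauma group, with the standard error (SE) of limma's fit, and a gene is called at a Benjamini-Hochberg adjusted p of at most 0.05 over all genes tested. The third minor trauma array stood apart: it lay at -58.0 on the third principal component, where the other 6 arrays lay between -8.15 and 10.2, and limma's array weights gave it 0.177. The counts over all genes and over the gene lists are therefore also given without it. The array labelled control 5 correlated more closely with the minor trauma arrays (median r = 0.98) than with the other controls (median r = 0.964). It enters none of the differences, only the spread and the control levels. The median deposited signal was 17.1 ± 3.66 (SD, n = 4) at 4.5 hours and 20.1 ± 1.52 (SD, n = 3) after minor trauma, and the 3′ to 5′ ratio of Gapdh was -0.313 ± 0.0756 against -0.409 ± 0.0882 on the log2 scale. Both gave p = 0.286 in an exact two-sided permutation test, whose smallest possible p is 0.0286. The trimmed mean of the deposited signal was 85 ± 17.2 against 117 ± 19.1 (p = 0.0571 in the same exact test, 0.228 adjusted over 4 measures).

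The liver at 4.5 hours differed from minor trauma in 3766 of 12832 genes tested (29.3%), of which 1379 were higher (10.7%) and 2387 lower (18.6%). At least a 2-fold change was seen in 1251 genes (9.75%), 622 higher and 629 lower, against 374 higher and 1962 lower as deposited and 485 higher and 1155 lower with median centring. The groups did not overlap on the arrays in 4070 genes (31.7%), and 3255 genes were both called and without overlap. Without the third minor trauma array 2905 of 12771 genes were called (22.7%), 1188 higher (9.3%) and 1717 lower (13.4%), and 2558 of the original calls were made again in the same direction. The balance of directions depended on the scaling between arrays. Higher genes made up 36.6% of the calls after quantile normalization, 13% with the values as deposited and 17.8% with each array centred on its median, and the median log2 change of all genes was -0.08, -0.46 and -0.27 under these scalings. Of the 15 largest increases by the naming rule, 9 belonged to the lists of interferon-induced genes and interferon-induced GTPases.

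**Figure D1:**
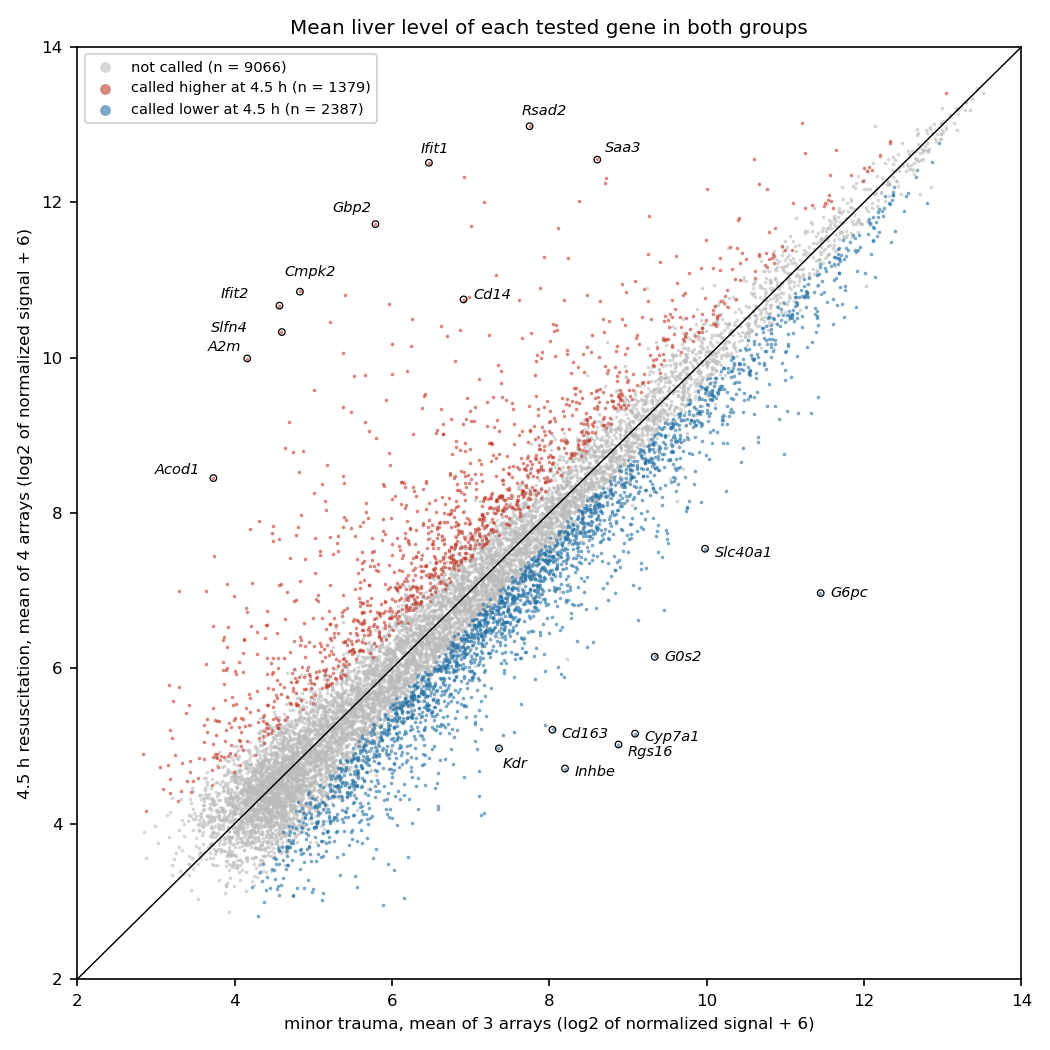
Mean level of each tested gene in the minor trauma group (x axis, 3 arrays) and in the 4.5-hour group (y axis, 4 arrays), both as normalized log2 of signal plus 6, with the line of equal levels. Red points are the 1379 genes called higher at 4.5 hours and blue points the 2387 called lower; the named genes lie far from the line.

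Interferon-induced genes held the largest increases of the comparison. All 30 tested members of the interferon list rose, with a median log2 change of 3.21 against -0.08 over all genes tested, and in 29 the groups did not overlap. One member, Oas3, met the filter on low signals only through the 4.5-hour arrays, and the other 29 rose as well. All 9 tested interferon-induced GTPases rose as well, with a median log2 change of 3.60. Minor trauma array 3 aside, both counts were the same, at 30 and 9. As deposited 26 and 9 members were higher, and with median centring 29 and 9.

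The promoters of these genes are shown because the interferon-stimulated response element can be read in several of them. Each line gives 100 bases upstream of the annotated start from RefSeq promoters on build GRCm38.p6, 5′ to 3′ on the gene's own strand. Capitals mark the core of that element, GAAA and a second GAAA with any 2 bases between them, searched on both strands, so that it also reads as TTTC, 2 bases and TTTC.
Ifit1, chr19:34640749-34640848, plus strand: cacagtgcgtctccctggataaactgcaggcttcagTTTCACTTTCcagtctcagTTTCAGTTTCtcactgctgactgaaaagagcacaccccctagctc
Ifit3, chr19:34583345-34583444, plus strand: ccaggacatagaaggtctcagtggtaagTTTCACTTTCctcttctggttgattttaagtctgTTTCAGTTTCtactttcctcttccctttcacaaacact
Gbp2, chr3:142620559-142620658, plus strand: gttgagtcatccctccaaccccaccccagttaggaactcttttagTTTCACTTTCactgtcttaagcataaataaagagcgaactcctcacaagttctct
Rsad2, chr12:26456518-26456617, minus strand: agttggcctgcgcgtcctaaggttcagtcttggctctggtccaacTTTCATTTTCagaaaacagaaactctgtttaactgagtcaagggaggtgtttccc
Cxcl10, chr5:92349040-92349139, minus strand: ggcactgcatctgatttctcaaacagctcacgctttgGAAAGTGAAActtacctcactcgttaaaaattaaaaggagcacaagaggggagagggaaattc
The match nearest the start lay 76 bases before it in Ifit1, 113 in Ifit3, 50 in Gbp2, 111 in Rsad2 and 204 in Cxcl10. Over windows of 250 bases before to 50 bases after the start, the motif occurred in 11 of the 23 interferon list genes with a promoter entry (47.8%) and in 6 of 7 GTPase genes (85.7%). Counted by gene, it occurred in 1079 of all 27025 genes with a promoter entry (3.99%), in 383 of 10352 genes tested (3.7%), in 89 of 1105 called higher (8.05%) and in 46 of 1931 called lower (2.38%). A match describes these letters and is not evidence of binding. Ifit2 and Cmpk2, which rose as strongly, had no match in the window, which says only that these letters are not there.

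Ifit1, whose product binds viral RNA that lacks a host cap, had log2 signals of 12.43, 12.49, 12.58 and 12.53 on the 4 arrays at 4.5 hours and of 7.09, 6.82 and 5.49 after minor trauma. The 4.5-hour arrays lay close together and more than 5 log2 units above each minor trauma array. Its log2 change was 6.04 ± 0.35 (SE, adjusted p = 9.17e-11, 65.9-fold), and 5.54 without the third minor trauma array. Its relative Ifit2 read 9.80, 11.42, 10.76 and 10.69 against 4.89, 4.61 and 4.20, a log2 change of 6.10 ± 0.31 (adjusted p = 1.21e-11). Ifit3 read 12.01, 12.43, 12.42 and 12.43 against 7.01, 6.87 and 6.88. Cmpk2, a mitochondrial nucleotide kinase, changed by 6.02 ± 0.30 and Rsad2, the antiviral enzyme viperin, by 5.23 ± 0.25 on the log2 scale. In each of these genes the minor trauma arrays lay near or below the control mean, which was 6.99 for Ifit1, 5.27 for Ifit2 and 7.17 for Ifit3. Their means after 1 hour of resuscitation were 7.55, 6.28 and 6.98, far below the 4.5-hour levels.

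Members of the interferon list with different roles rose. Among transcription factors, Irf7, which drives type I interferon production, rose by 2.44 ± 0.16 and Irf1 by 0.89 ± 0.19. Among effectors, Mx1, a GTPase that blocks influenza virus, rose by 4.48 ± 0.28. Among feedback genes Usp18, which removes ISG15 from proteins and damps the type I interferon receptor, rose by 4.83 ± 0.29, and the oligoadenylate synthetase-like Oasl1 by 4.73 ± 0.24. Outside the list, Herc6, an ISG15 ligase in mouse, rose by 4.67 ± 0.22. All these values are log2 changes.

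The guanylate-binding proteins, which attack the membranes around intracellular microbes, followed the same direction. Gbp2 had log2 signals of 11.36, 12.01, 11.73 and 11.77 at 4.5 hours and of 5.98, 5.69 and 5.70 after minor trauma, a log2 change of 5.93 ± 0.28 (adjusted p = 6.59e-12, 60.9-fold). No 4.5-hour array came within 5 log2 units of a minor trauma array. Gbp6 rose by 5.41 ± 0.35 and Gbp3 by 4.12 ± 0.25 on the log2 scale. Slfn4, a member of the Schlafen family, rose by 5.73 ± 0.36, and Calhm6, of the calcium homeostasis modulator family, by 5.25 ± 0.30.

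Of the genes that load peptides on MHC class I, 10 of 12 tested rose and none fell, with a median log2 change of 1.14. The count was 10 without the third minor trauma array, 3 as deposited and 7 with median centring. Tap1, a subunit of the peptide transporter, read 9.48, 9.46, 9.60 and 9.47 at 4.5 hours against 6.60, 5.78 and 6.85. The 4 arrays at 4.5 hours differed among themselves by less than 0.2 and stood above each minor trauma array. Tap1 rose by 3.09 ± 0.23 on the log2 scale, and the immunoproteasome subunits Psmb9 and Psmb8 rose by 2.55 ± 0.18 and 1.95 ± 0.17. The constitutive proteasome list had 3 of 29 members higher and 3 lower, with a median log2 change of -0.01, and of -0.51 as deposited and -0.32 with median centring. Leaving out minor trauma array 3, 2 were higher and 1 lower. The shares over all genes tested were 10.7% higher and 18.6% lower with all arrays.

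**Figure D2:**
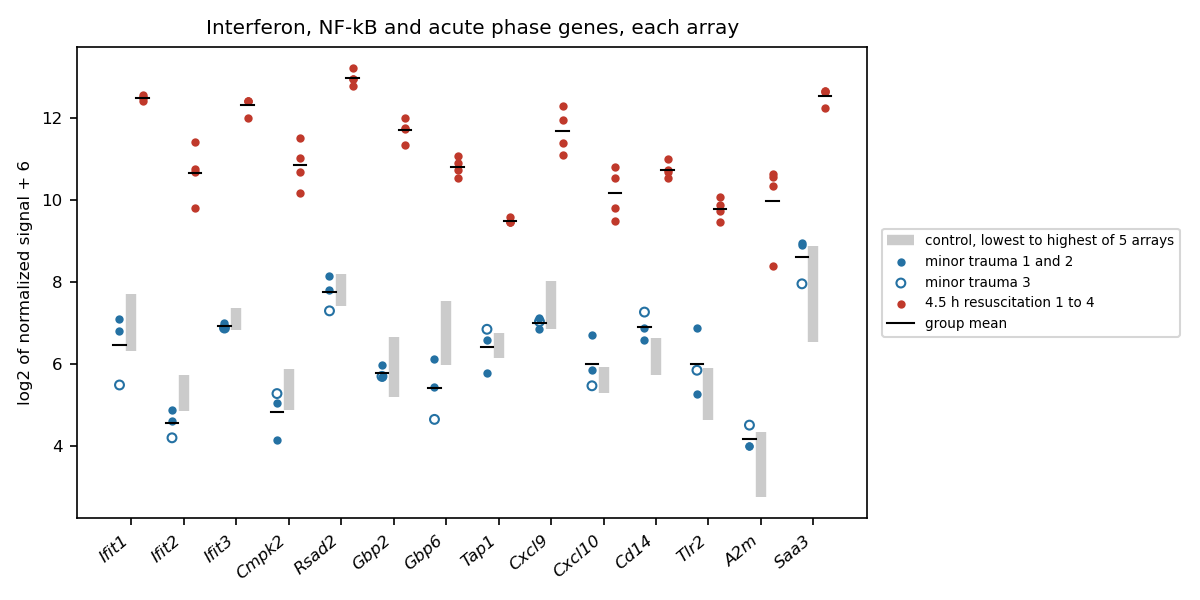
Level of 14 interferon, NF-kB and acute phase genes on each array, as normalized log2 of signal plus 6 (y axis). Red points are the 4 arrays at 4.5 hours, blue points the minor trauma arrays with the third as an open circle, bars in black the group means and grey bars the range of the 5 controls; red and blue points do not overlap for any of these genes.

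Chemokines moved in both directions. Of 19 tested, 10 rose and 3 fell, with a median log2 change of 0.48. With minor trauma array 3 left out, 10 rose and 2 fell. The interferon-dependent Cxcl9, a ligand of the T cell receptor CXCR3, read 11.10, 12.31, 11.95 and 11.40 against 7.13, 6.85 and 7.04, a log2 change of 4.68 ± 0.30 (adjusted p = 2.39e-10). Cxcl10, another CXCR3 ligand, rose by 4.17 ± 0.43 and Ccl5 by 4.24 ± 0.36. Ligands for monocytes and neutrophils rose too: Ccl2 by 3.14 ± 0.49 and Cxcl2 by 3.45 ± 0.48. Cxcl12, which retains leukocytes in tissue, fell by 1.35 on the log2 scale, with a mean of 8.90 against 10.26. The neutrophil attractant Cxcl1 behaved otherwise: its mean was 11.98 at 4.5 hours, 11.53 after minor trauma and 8.40 in controls, and its log2 change of 0.45 was not called (95% interval -1.0 to 1.90).

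NF-kB and Toll-like receptor genes rose in 23 of 31 members tested, and none fell, with a median log2 change of 0.99. Without the third minor trauma array 21 were higher and 1 lower; 12 were higher as deposited and 18 with median centring. Cd14, a co-receptor for lipopolysaccharide, read 10.54, 10.70, 10.73 and 11.02 at 4.5 hours and 6.87, 6.59 and 7.27 after minor trauma, a log2 change of 3.84 ± 0.33 (adjusted p = 1.7e-08). Tlr2, a receptor for bacterial lipoproteins, rose by 3.79 ± 0.39. The groups stood clear of each other in both receptors. Among the cytokines, Il1b rose by 2.25 ± 0.44, and Tnf, at or below the median of its array after minor trauma on all 3 arrays, was at least 2.26-fold higher (adjusted p = 3.77e-05). Inhibitors rose beside them: Il1rn, the interleukin-1 receptor antagonist, by 2.97 ± 0.25, Tnfaip3, the A20 enzyme that ends NF-kB signalling, by 2.37 ± 0.39, and Nfkbia, the inhibitor that holds NF-kB in the cytoplasm, by 0.89 ± 0.14. Selp and Icam1, adhesion molecules of activated endothelium, rose by 2.81 ± 0.26 and 1.44 ± 0.33.

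The kB motif, GGGA, any 1 base and TTTCC, searched on both strands, is shown in capitals for a chemokine and an inhibitor of this group, again from RefSeq on GRCm38.p6.
Cxcl2, chr5:90903757-90903856, plus strand: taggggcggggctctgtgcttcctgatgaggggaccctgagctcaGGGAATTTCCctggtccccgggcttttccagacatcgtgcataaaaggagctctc
Nfkbia, chr12:55492648-55492747, minus strand: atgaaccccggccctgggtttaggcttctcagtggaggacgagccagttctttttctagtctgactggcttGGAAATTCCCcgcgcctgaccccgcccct
These matches lay 88 and 20 bases before the start. The motif was found in 126 of all 27025 genes with a promoter entry (0.466%) and in 57 of 10352 genes tested (0.551%). By call, it was found in 9 of 1105 genes called higher (0.814%) and in 8 of 1931 called lower (0.414%). Of genes with a promoter entry, 2 of 26 in the NF-kB list and 2 of 12 chemokine genes held it. The other chemokine was Cxcl1, which was not called. Tlr2, Il1rn and Tnfaip3, which rose, had no match in the window.

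In the interleukin-6 family list 10 of 19 members rose and none fell, with a median log2 change of 0.80. One of the 10, Osm, met the filter only through the 4.5-hour arrays. Minor trauma array 3 aside, 8 rose, and 5 were higher and 2 lower as deposited, 6 and 3 with median centring. Il6 itself read 5.38, 6.37, 6.33 and 6.27 at 4.5 hours against 4.32, 4.03 and 3.22 and was at least 2.8-fold higher (adjusted p = 0.00217). It had been higher still at the end of shock and after 1 hour of resuscitation, where its means were 7.98 and 7.93. Osmr, the oncostatin M receptor, rose by 1.70 ± 0.24, Jak2, a kinase of cytokine receptors, by 1.95 ± 0.24, and Socs1, a suppressor of cytokine signalling, was at least 3.19-fold higher.

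The acute phase plasma proteins did not move as a block. Of 27 tested, 6 rose and 1 fell, and the median log2 change was 0.23, which turned to -0.22 as deposited and -0.03 with median centring. Leaving out minor trauma array 3, 5 rose and none fell. A2m, the protease inhibitor alpha-2-macroglobulin, read 10.63, 10.35, 10.57 and 8.40 at 4.5 hours against 3.99, 3.99 and 4.51. The fourth 4.5-hour array was lower than the other 3, yet all 4 lay above the minor trauma arrays, where A2m was at or below the array median. The difference was at least 41.7-fold (adjusted p = 1.78e-09). Saa3, a serum amyloid A made by macrophages and other cells, rose by 3.94 ± 0.48 to a mean well above the minor trauma arrays of 8.92, 8.95 and 7.96. The hepatocyte serum amyloid Saa1 had a mean of 13.21 against 13.17, while the control mean was 11.35, and its log2 change of 0.03 had a 95% interval of -1.23 to 1.29. Lcn2, which binds bacterial iron carriers, stood at 12.98 and 12.14 against 7.68 in controls, a log2 change of 0.83 that was not called (-1.03 to 2.70). Orm2, an orosomucoid, gave 1.14 (0.18 to 2.09, adjusted p = 0.0684). Haptoglobin, Hp, differed by 0.11 (-0.02 to 0.23). The intervals of Saa1 and Lcn2 draw on the spread of all 5 groups, and the control arrays themselves ranged from 9.45 to 13.16 for Saa1 and from 6.15 to 11.78 for Lcn2.

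Cell type markers moved in the same libraries. Neutrophil markers rose in 9 of 12 tested members, also without minor trauma array 3, with a median log2 change of 2.13, and their summed level was 12.26 to 12.46 at 4.5 hours, 9.11 to 9.80 after minor trauma and 8.04 to 9.37 in controls, as log2. Of the 4 members that did not pass the filter on low signals, Cxcr2 is a defining marker of the cell. Another, Itgam, is also in the monocyte list. S100a9, a calprotectin subunit, read 10.81, 10.91, 10.76 and 10.66 against 7.62, 7.24 and 6.06, and its partner S100a8 rose by 3.76 ± 0.64. Mmp8, neutrophil collagenase, read 7.40, 7.38, 7.30 and 7.53 against 4.90, 4.84 and 4.94. In each of these genes the arrays of a group differed less among themselves than the groups differed. S100a9 was already above these minor trauma levels before this time, with a mean of 9.04 at the end of shock and 10.50 after 1 hour. The part of neutrophils in the rise of chemokine and NF-kB genes was not tested, and in whole liver more cells of a type and more RNA per cell cannot be told apart.

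Of 10 monocyte markers tested, 5 (F13a1, Chil3, Vcan, S100a4 and Cx3cr1) met the filter on low signals only through the arrays at 4.5 hours, so their higher levels there carry no weight in the count. Among the other 5 markers 3 were called higher and none lower. Ms4a4c, of a family of membrane proteins in myeloid cells, read 7.16, 7.61, 7.38 and 7.51 against 4.56, 4.89 and 4.67. Chil3, a lectin of activated macrophages, differed by 3.61 ± 0.37, but it is among the 5 that met the filter only through the 4.5-hour arrays. Among 11 lymphocyte markers the genes that rose were Gzmb and Gzma, the granzymes of cytotoxic cells, by 2.09 ± 0.44 and 1.96 ± 0.37, and none fell, with or without minor trauma array 3. The share called higher over all genes tested was 10.7%.

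Markers of Kupffer cells and of sinusoidal endothelium fell. Of 14 Kupffer cell markers, 12 were lower and none higher, with a median log2 change of -1.28, and the summed level was at most 11.39 at 4.5 hours, 12.42 to 12.96 after minor trauma and 12.51 to 12.93 in controls. With minor trauma array 3 left out, 11 were lower. Cd163, the scavenger receptor for hemoglobin bound to haptoglobin, read 4.86, 5.11, 5.66 and 5.23 against 7.71, 8.28 and 8.14, a log2 change of -2.83 ± 0.23 (adjusted p = 7.88e-09). Each 4.5-hour array lay at least 2 log2 units below each minor trauma array. Vsig4, a complement receptor of Kupffer cells, fell by 2.10 and Slc40a1, the iron exporter ferroportin, by 2.44 on the log2 scale. Clec4f, a lectin found on mouse Kupffer cells, fell by 1.27 and Csf1r, the receptor for macrophage colony-stimulating factor, by 1.32. The 2 markers not called were Cd68 at 0.22 (95% interval -0.22 to 0.65) and Marco at -0.05 (-0.89 to 0.79).

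Sinusoidal endothelial markers were lower in 9 of 15 members and higher in 1, with a median log2 change of -0.69 and a summed level of 10.98 to 11.12 against 11.58 to 11.95. Without the third minor trauma array 8 were lower and 1 higher. Kdr, a receptor for vascular endothelial growth factor, read 5.55, 5.09, 4.16 and 5.08 against 7.28, 7.24 and 7.54, a log2 change of -2.39 ± 0.27. Clec4g, a lectin of these cells, fell by 1.72, the hyaluronan scavenger receptor Stab2 by 1.08 and the angiopoietin receptor Tek by 1.25. Cdh5, the junction protein VE-cadherin, was the member called higher, at 0.67 ± 0.23 (adjusted p = 0.0316). That call was lost without minor trauma array 1 (0.59), minor trauma array 2 (0.63), 4.5-hour array 2 (0.57) or 4.5-hour array 4 (0.58). Lyve1, a hyaluronan receptor of these cells, gave 0.53 (95% interval -0.28 to 1.33). Stellate cell markers fell in 4 of 13, or in 2 without 4.5-hour array 3 and 3 without minor trauma array 3, among them the lectin Colec11 by 1.14. For comparison, 18.6% of all genes tested were called lower and 10.7% higher. Without minor trauma array 3 the share called lower was 13.4%. Hepatocyte markers gave 1 higher and 1 lower of 13. The higher one was Fabp1, the liver fatty acid carrier, at 0.36 (0.08 and no call without minor trauma array 3, where 0 were higher and 2 lower), and with median centring 0 were higher and 4 lower. The summed level of the hepatocyte markers was 16.41 to 16.46 against 16.42 to 16.47. Quantile normalization sets the highest signals alike on all arrays, which limits what these sums can show. The median log2 change of these markers was -0.05, and -0.42 as deposited and -0.24 with median centring.

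**Figure D3:**
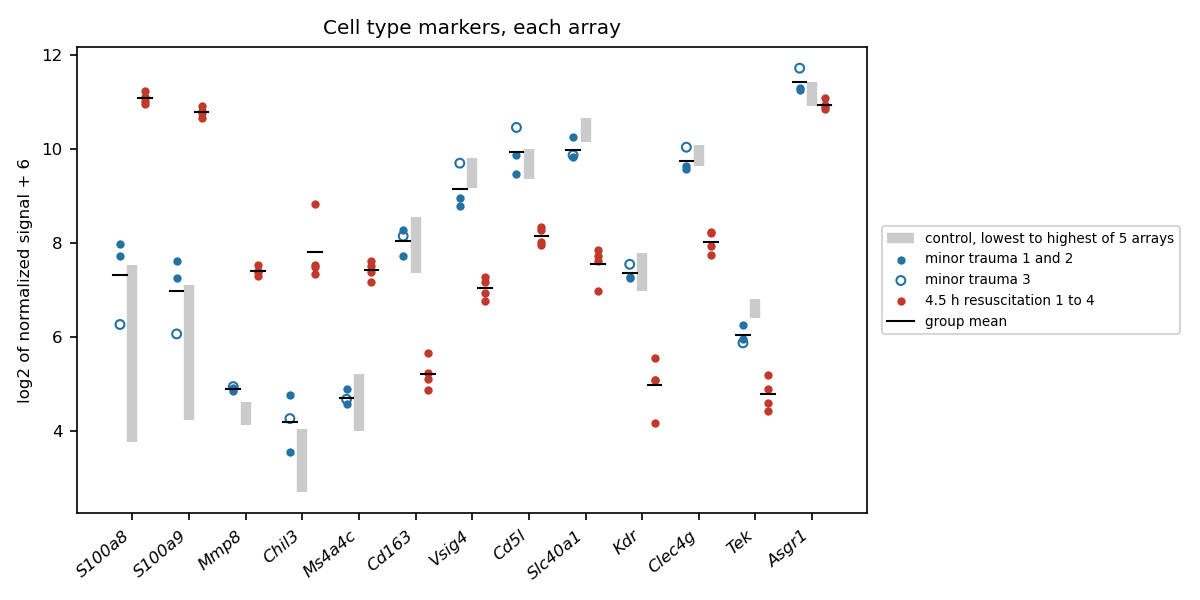
Level of 13 cell type markers on each array, as normalized log2 of signal plus 6 (y axis): neutrophil and monocyte genes at left, Kupffer and endothelial genes in the middle, and the hepatocyte receptor Asgr1 at right. Chil3 met the filter on low signals only through the 4.5-hour arrays. Red points are the 4 arrays at 4.5 hours, blue points the minor trauma arrays with the third as an open circle, black bars the group means and grey bars the range of the 5 controls.

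The early response, hypoxia and cell death lists held more genes called higher than lower. Of 30 immediate early genes 13 rose and 1 fell, with a median log2 change of 0.66. Minor trauma array 3 aside, 12 rose and none fell, and 6 rose and 3 fell as deposited, 10 and 2 with median centring. Btg2, an antiproliferative p53 target, read 10.49, 10.16, 10.15 and 10.21 against 7.36, 7.89 and 7.71, a log2 change of 2.60 ± 0.23. It had been at similar levels before, with means of 10.74 at the end of shock and 11.10 after 1 hour. Egr1, a zinc finger factor of the early response, rose by 1.90 ± 0.49 against minor trauma, while its 4.5-hour arrays, from 8.86 to 9.88, lay below the mean of 11.68 at the end of shock. Of 17 p53 targets 7 rose and 2 fell, among them Trp53inp1, an autophagy and apoptosis regulator, which rose by 2.56 ± 0.34, and by 3.18 without the second minor trauma array. Without the third, 6 targets rose and 2 fell.

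Hypoxia-inducible genes rose in 13 of 25 members and none fell, with a median log2 change of 0.75, and 16 rose without the third minor trauma array. As deposited 8 were higher and 1 lower, with median centring 9 and 1. Egln3, an oxygen sensor of the prolyl hydroxylase family, read 9.51, 8.83, 9.01 and 9.49 against 6.95, 6.42 and 7.45, a log2 change of 2.27 ± 0.22. Slc2a1, the glucose transporter GLUT1, read 8.93, 8.44, 8.61 and 9.42 against 6.47, 6.31 and 7.66. The groups did not overlap for either gene. Their means in shock, 7.98 and 7.80, and after 1 hour, 7.86 and 7.42, were lower than at 4.5 hours. Hk2, a hexokinase little used in the resting liver, rose by 1.43 ± 0.24, and the histone demethylase Kdm3a by 1.78 ± 0.26.

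Of 20 cell death genes 10 rose and 1 fell, with a median log2 change of 0.64. As deposited 4 rose, with a median of 0.27, with median centring 7, and without the third minor trauma array 9, and 1 fell in each case. Mlkl, which perforates the membrane in necroptosis, read 8.44, 8.78, 8.53 and 8.70 against 5.99, 5.84 and 6.09, a log2 change of 2.64 ± 0.28. Each resuscitated liver was well above each minor trauma liver. Tnfsf10, the death ligand TRAIL, rose by 2.42 ± 0.18 and Casp4, the caspase that senses intracellular lipopolysaccharide, by 2.20 ± 0.25. Bik, a death-promoting member of the Bcl2 family, fell by 2.08 on the log2 scale.

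Matrix genes rose in 11 of 20 members and none fell, with a median log2 change of 0.72. As deposited 5 rose, with a median of 0.36, with median centring 9, and without the third minor trauma array 11. Mmp13, an interstitial collagenase, read 6.38, 7.15, 7.15 and 7.28 against 3.59, 3.14 and 3.15 and was at least 5.23-fold higher. Timp1, an inhibitor of such proteases, was at least 4.51-fold higher. Of 23 junction and cytoskeleton genes 9 rose and 3 fell, with a median log2 change of -0.02, against 3 and 5 as deposited and 6 and 5 with median centring. Without minor trauma array 3 the counts were 10 and 2. Krt18, a keratin of hepatocytes, rose by 1.39 ± 0.15 and the tubulin Tubb6 by 2.46 ± 0.31. Btc, the growth factor betacellulin, rose by 2.30 ± 0.20. In the arginine and polyamine list 7 of 15 rose and 1 fell, and 6 rose and 1 fell without minor trauma array 3, 4 rose without minor trauma array 1 or 4.5-hour array 1 or 4, and 2 rose and 1 fell as deposited. Sat1, which acetylates polyamines for export, rose by 1.38 ± 0.15. The S phase and mitosis list had 2 of 16 members lower, Mcm2 and Cenpa, and none higher, and also 2 lower without minor trauma array 3. Its median log2 change was -0.05 against -0.08 over all genes tested, of which 18.6% were called lower.

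Stress lists near the scaling shift were harder to read. With all arrays, 10.7% of all genes tested were called higher and 18.6% lower. Of 27 endoplasmic reticulum chaperone and unfolded protein genes 9 rose and 1 fell, but with the values as deposited 1 rose and 3 fell, and the median log2 change of 0.30 became -0.19. Heat shock genes rose in 4 of 17, or in 2 without minor trauma array 2, with a median of 0.31 that became -0.19 as deposited and -0.01 with median centring. Hspa1b, an inducible HSP70, read 9.41, 10.18, 10.34 and 11.22 against 8.11, 8.73 and 8.77, a log2 change of 1.75 ± 0.33, and Ddit3, the factor CHOP, rose by 1.34 ± 0.27. Glucocorticoid-induced genes rose in 5 of 22, with a median of 0.26 that became -0.18 as deposited, and in 2 when minor trauma array 1 or 4.5-hour array 1, 2 or 4 was left out. Of 19 NRF2 target and antioxidant genes 3 rose and 7 fell, or 4 fell without 4.5-hour array 4. With minor trauma array 3 left out, the counts of higher and lower genes were 7 and 1 for the endoplasmic reticulum list, 4 and 0 for heat shock, 4 and 0 for glucocorticoid and 3 and 5 for NRF2 genes. Gclm, a subunit of the enzyme that starts glutathione synthesis, fell by 0.81.

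Glucose metabolism held the largest decrease of the comparison. G6pc, the catalytic subunit of glucose-6-phosphatase, which releases free glucose from liver, read 6.80, 6.99, 6.17 and 7.90 at 4.5 hours against 11.24, 11.23 and 11.87 after minor trauma. The gap between the groups exceeded 3 log2 units, and the control mean of 10.30 lay between them. G6pc fell by 4.48 ± 0.35 on the log2 scale (adjusted p = 5.27e-09, 22.3-fold), and by 4.27 without the third minor trauma array. Its mean was 11.81 at the end of shock and 10.94 after 1 hour of resuscitation. Pck1, another enzyme of gluconeogenesis, had means of 11.99 and 12.10 and a log2 change of -0.11 (95% interval -0.48 to 0.25). Gcgr, the glucagon receptor, fell by 1.11, and Crem, a factor of the cAMP response, rose by 1.69 ± 0.17. The list as a whole had 3 of 18 members higher and 3 lower, with or without minor trauma array 3. These counts were near the shares over all genes tested, 10.7% higher and 18.6% lower.

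Of 14 genes of glucose uptake, glycolysis and glycogen, 8 fell and 1 rose, with a median log2 change of -0.45, and 6 fell and 1 rose without the third minor trauma array. Slc2a2, the glucose transporter GLUT2 of hepatocytes, read 10.09, 9.94, 10.42 and 10.10 against 11.25, 11.12 and 11.44. This transporter stood lower in each resuscitated liver, while GLUT1 above stood higher. Pklr, liver pyruvate kinase, fell by 1.39 and Gys2, liver glycogen synthase, by 0.96 on the log2 scale. Pfkl, liver phosphofructokinase, was the member that rose, by 1.41 ± 0.17.

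Bile acid genes fell in 13 of 24 members and rose in 1, with a median log2 change of -0.56. With minor trauma array 3 left out, 13 fell and 2 rose. Cyp7a1, the rate-limiting enzyme of bile acid synthesis, read 4.94, 5.02, 5.26 and 5.42 against 10.12, 9.25 and 7.90. The 4.5-hour arrays lay close together and the minor trauma arrays were spread over more than 2 log2 units without reaching them. Cyp7a1 fell by 3.93 ± 0.48 on the log2 scale (adjusted p = 3.1e-06). Cyp8b1, which makes cholic acid, fell by 1.88, and Nr1h4, the bile acid receptor FXR, read 7.98, 8.79, 8.12 and 8.22 against 10.36, 10.14 and 10.25. The uptake transporter Slc10a1 fell by 0.85, with a mean of 11.49 against 12.34. Slc51b, a subunit of the basolateral exporter, was the member that rose; its minor trauma arrays were at or below the array median and the difference was at least 1.12-fold, but it met the filter only through the 4.5-hour arrays. The canalicular exporter Abcb11 gave -0.10 (95% interval -0.58 to 0.39), and Nr0b2, the repressor SHP, gave 0.73 (0.02 to 1.43, adjusted p = 0.117).

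Lipid genes fell in each of 3 lists. Of 20 genes of fatty acid and triglyceride synthesis 13 fell and none rose, with a median log2 change of -0.62, but without the third minor trauma array 6 fell. Lpin2, a phosphatidate phosphatase of triglyceride synthesis, read 8.52, 8.84, 8.11 and 9.17 against 10.26, 10.51 and 10.54, a log2 change of -1.78 ± 0.24. Of 13 lipid droplet genes 8 fell and 1 rose, with a median of -0.82, and 7 fell and 1 rose without that array. G0s2, an inhibitor of the triglyceride lipase ATGL, read 5.81, 6.34, 6.28 and 6.19 against 9.76, 9.90 and 8.36. Its groups stood 2 log2 units apart at the nearest arrays, and it fell by 3.19 ± 0.34 (adjusted p = 5.57e-07). Its mean was 7.40 at the end of shock and 5.93 after 1 hour, against 9.40 in controls. Mgll, monoglyceride lipase, fell by 1.67, and Hilpda, an ATGL inhibitor induced by hypoxia, rose by 1.35 ± 0.32.

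Of 24 PPARalpha targets and genes of fatty acid oxidation 13 fell and 1 rose, with a median log2 change of -0.46, and 8 fell and none rose without the third minor trauma array. Fgf21, a hormone that PPARalpha induces in the fasted liver, read 3.11, 4.21, 3.61 and 3.02 against 5.56, 6.40 and 5.90. All 4 arrays at 4.5 hours were at or below the array median, so the difference was at least 2.54-fold (adjusted p = 4.48e-05). Cpt1a and Cpt2, which bring fatty acids into mitochondria, fell by 1.11 and 1.17 on the log2 scale, and Ppara itself by 0.60. Respiratory chain genes fell in 13 of 29 and rose in none (10 fell without minor trauma array 3, and 5 rose without minor trauma array 2), with a median of -0.14, close to the -0.08 of all genes. Their changes were small, with Uqcrfs1, an iron-sulfur subunit of complex III, at -0.44 ± 0.09. In the cholesterol list 5 of 22 fell and 1 rose (3 fell without minor trauma array 3 or 4.5-hour array 1), with a median of 0.03, and of -0.46 as deposited and -0.27 with median centring. The count of lower genes lay near the share over all genes tested, of which 18.6% were called lower and 10.7% higher. The gene that rose was Abca1, the exporter of cholesterol to HDL, by 1.58 ± 0.28, or 1.03 without the third minor trauma array.

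Drug metabolism genes were lower in part. Of 28 cytochromes P450 and their regulators 12 fell and none rose, with a median log2 change of -0.52; of 23 conjugation enzymes 16 fell and none rose, with a median of -0.50. Without the third minor trauma array 10 and 14 fell. Nr1i3, the receptor CAR that switches on drug metabolism, read 7.19, 6.60, 7.06 and 7.45 against 9.15, 8.81 and 9.24. The resuscitated livers lay below the lowest minor trauma liver by more than 1 log2 unit, and Nr1i3 fell by 1.99 ± 0.32. Ugt2b35, a glucuronosyltransferase, fell by 1.49 and Cyp2c54 by 1.03. The abundant Cyp2e1 and Cyp3a11 gave log2 changes of -0.05 (95% interval -0.15 to 0.06) and -0.13 (-0.24 to -0.01), neither called. Cyp2b10, a CAR target, had means of 10.93 and 12.02 in the groups compared and of 6.48 in controls, and its log2 change of -1.10 was not called (-3.36 to 1.17), with control arrays from 3.82 to 11.83.

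Amino acid genes fell in 17 of 32 members and rose in 1, with a median log2 change of -0.40, and fell in 14 without the third minor trauma array. Prodh, proline dehydrogenase, read 8.77, 9.0, 8.98 and 8.58 against 10.34, 10.22 and 10.81, a log2 change of -1.62 ± 0.17. No array of one group reached those of the other. Gpt, alanine aminotransferase, fell by 1.14, and Kynu and Afmid, enzymes of the tryptophan pathway, fell by 1.02 and 1.33. The urea cycle enzymes Cps1 and Otc gave -0.13 (95% interval -0.23 to -0.02, adjusted p = 0.0683) and -0.09 (-0.28 to 0.10). Of 23 hepatocyte solute carriers 9 fell and 2 rose, or 8 and 3 without that array; the lactate transporter Slc16a1 rose by 1.07 ± 0.14, and the cation exporter Slc47a1 fell by 0.86.

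**Figure D4:**
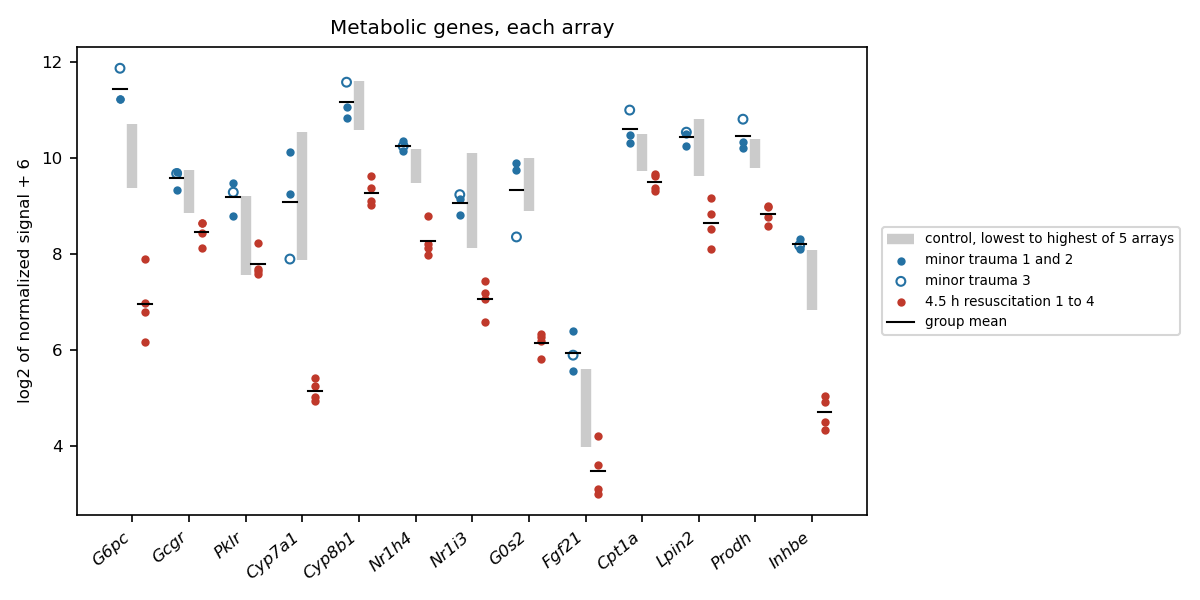
Level of 13 metabolic genes on each array, as normalized log2 of signal plus 6 (y axis). Red points are the 4 arrays at 4.5 hours, blue points the minor trauma arrays with the third as an open circle, black bars the group means and grey bars the range of the 5 controls; the red points lie below all blue points for each gene.

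Secreted and iron-regulating proteins of the liver changed gene by gene. Inhbe, the activin E subunit made by hepatocytes, read 4.35, 5.06, 4.51 and 4.92 against 8.32, 8.11 and 8.18, a log2 change of -3.49 ± 0.25 (adjusted p = 1.68e-09). The minor trauma arrays lay above the control mean of 7.29, and the means at the end of shock and after 1 hour were 5.03 and 4.32. Fst, the activin-binding follistatin, rose by 2.50 ± 0.52, from 4.45, 4.43 and 4.87 to 8.06, 6.33, 6.52 and 7.44. Hjv, hemojuvelin, a co-receptor that raises hepcidin, read 6.15, 5.76, 5.73 and 6.08 against 8.05, 7.82 and 8.59, a fall of 2.22 ± 0.26 on the log2 scale, while hepcidin itself, Hamp, differed by 0.03 (95% interval -0.30 to 0.35). Igfals, which stabilises circulating insulin-like growth factors, fell by 1.04.

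Further large decreases lay outside the lists. Rgs16, a brake on G protein signalling, read 4.70, 4.84, 5.23 and 5.31 against 8.14, 9.0 and 9.49, a log2 change of -3.86 ± 0.63, and its mean had been 10.77 at the end of shock. The potassium channel Kcnk5 fell by 3.02, the ubiquitin ligase Rnf144b by 2.71, the endothelial membrane protein Tmem204 by 2.67 and Hykk, hydroxylysine kinase, by 2.50.

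Clock, transcription factor, zonation, complement and clotting genes were also counted. Over all genes tested 10.7% were called higher and 18.6% lower, and counts near these shares say nothing particular about a list. Of 20 clock and clock output genes 2 fell (4 without control array 2), Per3 by 2.01 and Hlf, an output factor, by 1.25, and none rose; Arntl gave 0.32 (95% interval -0.85 to 1.49) and Nr1d1 -0.17 (-0.93 to 0.60). Liver-enriched transcription factors fell in 8 of 24 and rose in 1, with Creb3l3, a factor of the secretory and fasting response, down by 1.32. Among 19 Wnt and zonation genes 6 fell and none rose, including Wnt2, a Wnt ligand of the central vein and sinusoids, by 1.90. Complement genes gave 1 higher and 3 lower of 21, and clotting genes 1 higher and 6 lower of 25, with Plaur, the urokinase receptor, up by 1.19 ± 0.22 and F7, factor VII, down by 0.70. Leaving out minor trauma array 3, the counts of higher and lower genes were 0 and 2 for the clock, 1 and 6 for liver factors, 0 and 4 for Wnt and zonation, 3 and 3 for complement and 1 and 4 for clotting. Nucleolar ribosome biogenesis factors rose in 2 of 30 (1 without minor trauma array 3 and 5 without minor trauma array 2), Heatr1 by 1.64 ± 0.18 among them. Of 21 ribosomal proteins 3 were called higher, a count that ran from 0 without minor trauma array 3 to 8 without minor trauma array 1.

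For 28 called genes the 4.5-hour mean lay within 0.5 log2 units of the control mean while the minor trauma mean lay more than 1 away, 13 with minor trauma above control and 15 with it below. Cdk18, a cyclin-dependent kinase, read 6.53, 6.42, 7.17 and 6.95 at 4.5 hours and 8.59, 8.27 and 8.55 after minor trauma, with a control range of 6.41 to 7.90. St3gal5, the synthase of ganglioside GM3, fell by 1.71 ± 0.34 and the glutathione transferase Gstt3 by 1.62 ± 0.29 in this comparison. Acsl4, an acyl-CoA synthetase for arachidonic acid, gave 1.48 ± 0.34, and 0.81 without the third minor trauma array, which read 6.51 where the other arrays of its group read 8.50 and 8.57.

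**Figure D5:**
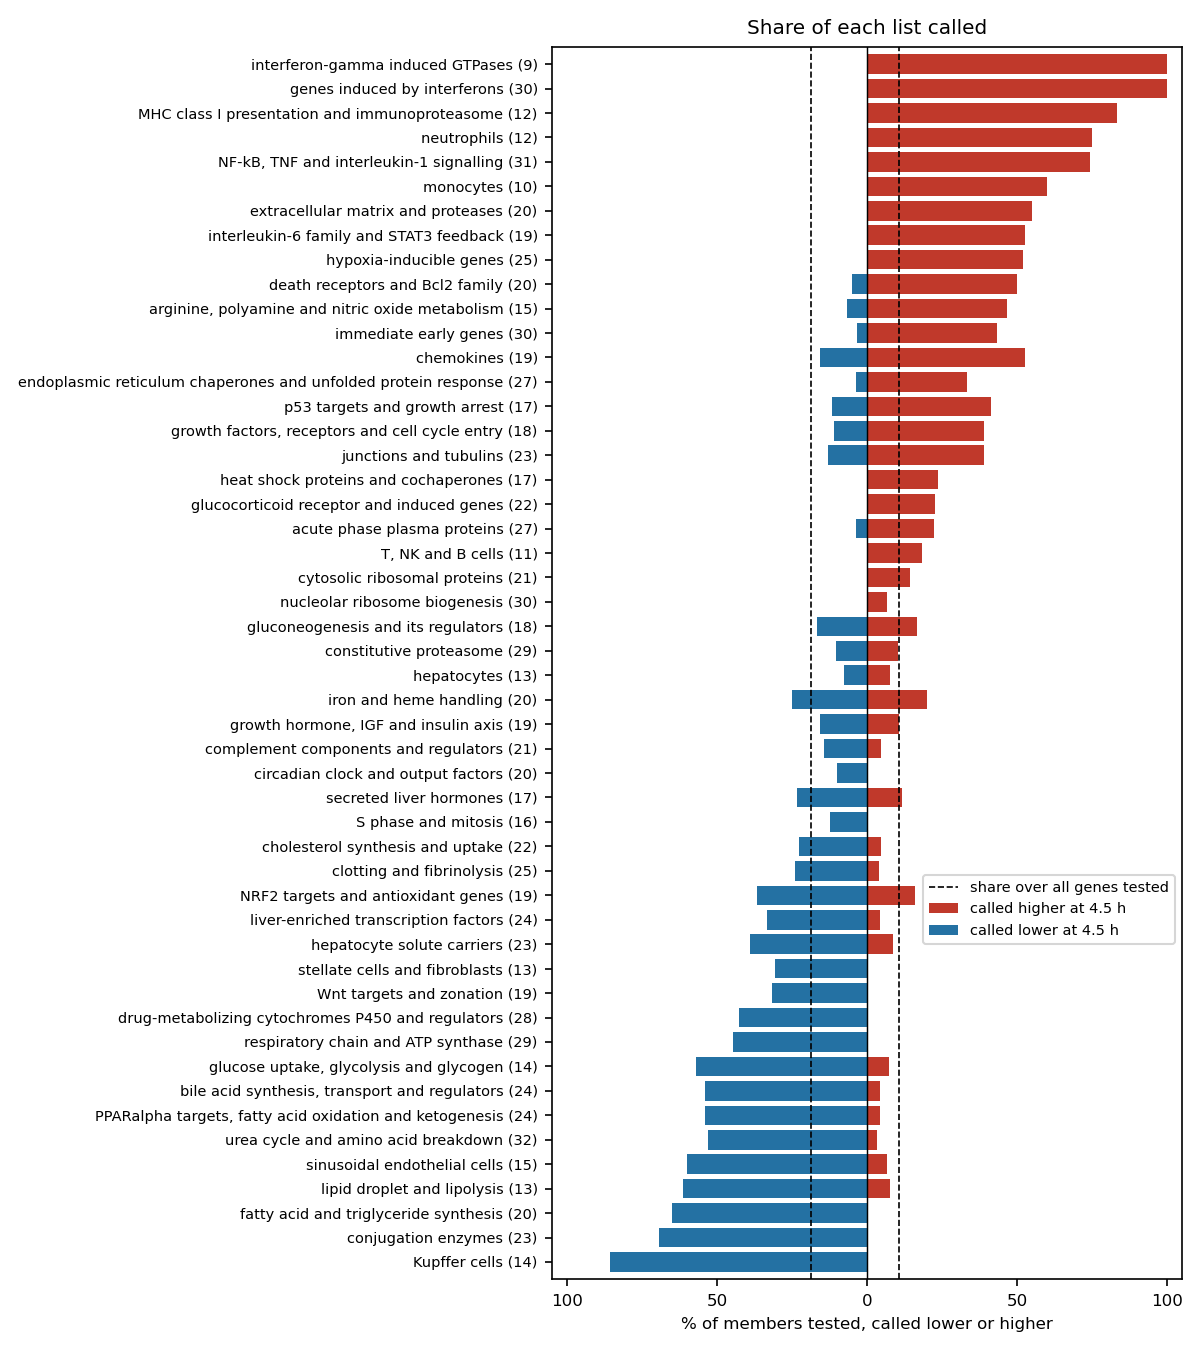
Share of the tested members of each gene list called higher (red, to the right) or lower (blue, to the left) at 4.5 hours, in percent, with the number tested in brackets. Dashed lines mark the shares over all genes tested, 10.7% higher and 18.6% lower; interferon-induced genes reach 100 percent at the top and Kupffer cell markers lie at the bottom, and the monocyte bar includes 3 called members that met the filter on low signals only through the 4.5-hour arrays.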

How the data were processed

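The deposited table holds MAS5 signal intensities, 1 column per array, as made by the authors per the submitters' processing notes, which give no MAS5 version; the values are not scaled to a common level between arrays. The platform table gave 1 gene to 34945 probe sets, several to 932 and none to 9160, and the 932 and 9160 were not used. The intensities plus 6 were quantile normalized over the 20 arrays and taken to log2. A probe set was kept if it exceeded its array's median on at least 3 arrays, and the one with the highest mean stood for its gene, which left 12832 of 18193 genes. limma 3.58.1 in R 4.3.3 fitted 5 group means over all 20 arrays with an intensity trend, with the Benjamini-Hochberg adjustment over all genes tested. For a gene that did not exceed the array median on any array of the lower group, "at least N-fold" compares the higher group's mean with that median. The labels number the arrays of a group as replicates without saying that each is a separate mouse, so p-values measure the spread between these arrays, which may be technical, and the number of arrays limits the precision.

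The 4 arrays at 4.5 hours and the 3 of minor trauma share replicate numbers, but no label pairs them. The members, gene lists and tests were chosen with earlier results of these data known. The naming rule took the 15 largest increases and decreases that were called with and without minor trauma array 3 and without overlap. It added up to 4 called members per list with the largest change, and up to 8 called genes whose 4.5-hour mean lay near the control mean. Not all genes taken by the rule are given in the text. Other list members are named for their role and were chosen after their values were seen. Alternatives were 2 other scalings, pseudocounts of 1 and 18, no filter and a stricter one, the mean of probe sets, the 7 arrays alone, no trend, array weights, the replicate number or a spike-in set as a block, and leaving out each array. The calculation was tested on simulated data. Promoters came from RefSeq on GRCm38.p6 and were matched by symbol.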

Additional observations from a re-analysis of the deposited data

Results flagged for a closer look

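In 12 of 201 named genes 1 of the 4 arrays at 4.5 hours lay so far from the other 3 that its gap to the nearest, divided by the range, exceeded Dixon's critical value for 4 arrays at 95%. Chance alone gives about 1 such group in 20, which is about the number seen. The fourth array was low for A2m, at a log2 signal of 8.40 where the others lay at 10.35 to 10.63, for Saa3, at 12.25 against 12.64 to 12.67, and for Fasn, the fatty acid synthase, at 7.83 against 8.95 to 9.16. It was high for Chil3, at 8.83 against 7.34 to 7.52, and for Inhbc, an activin subunit, at 7.21 against 6.84 to 6.89. The first array was low for Ifit3, at 12.01 against 12.42 to 12.43, for Il6, at 5.38 against 6.27 to 6.37, and for Mmp13, at 6.38 against 7.15 to 7.28. It was high for Fitm2, a lipid droplet protein, at 7.20 against 6.97 to 7.0. The third array was high for Tap1, at 9.60 against 9.46 to 9.48, for Selp, at 9.18 against 8.63 to 8.65, and for Afmid, at 8.16 against 7.69 to 7.75. For each of these genes the outlying array still lay on the same side of all 3 minor trauma arrays as the others.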

How the results depend on the processing

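Of 199 called genes named by the rule, 94 kept their call under all 35 alternatives, 174 kept it under both other scalings, and 20 lost it without minor trauma array 3. Leaving out 1 array at a time gave 2905 calls (without minor trauma array 3) to 3969 (without minor trauma array 2), with 1169 to 1524 higher and 1717 to 2469 lower. The values as deposited gave 422 higher and 2821 lower, and median centring 802 higher and 3701 lower. With the 7 arrays alone 2506 genes were called, 986 higher and 1520 lower. Among arrays with the dap spike-in signal 2159 were called, 784 higher and 1375 lower, and among those without it 738, 435 higher and 303 lower, where the lone minor trauma array was assumed to vary like the other groups. A 2-fold minimum left 1251. Leaving out both minor trauma array 3 and control array 5 gave 3103. The replicate block gave 3847 calls, 1423 higher and 2424 lower, with 190 lost and 271 new; deviations of arrays that share a number correlated at 0.0184, 0.0655 and 0.137, so the numbers were not taken as pairs. Of the 3766 calls, 124 had the opposite sign as deposited, 42 among arrays without dap and 30 with the mean of probe sets, of which 1, with that mean, was called there. Among named genes the sign turned, as deposited, for Fabp1 (-0.04), Mbl1 (-0.02), Rpl27 (-0.00), Rps18 (-0.09) and Psma1 (-0.10), and for Cfp with the mean of its probe sets (0.24). The cause of these shifts was not tested. Probe sets near background limit the size of low-level changes.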
